A study of Mus musculus with 2 samples.

Results

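The 8 genes described here make microRNAs (miRNAs) of red blood cells, leukocytes and microglia: Mir451a, Mir144 and Mir486 for the erythroid lineage, and Mir150, Mir142, Mir223, Mir146 and Mir155 for leukocytes and microglia. They were chosen by name for these known cell types. They were measured in the newborn mouse hindbrain by microRNA-seq of total RNA, with RNAs of under 30 bases selected. Of the 1973 miRNA genes with an entry in the count tables, 7 are among the 8. Mir142 has no entry and was read from the reads on the opposite strand of its antisense gene Mir142b. The samples were single hindbrains of 2 mice of strain B6NCrl at postnatal day 0, from pup 1 and from pup 3. The labels name no treatment. Both pups carry the same donor identifier, and no sex was recorded. The pups form 1 group, so no contrast between conditions exists and each comparison below is between the libraries of pup 1 and pup 3.

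Each blood cell lineage makes its own set of miRNAs. In red cell precursors, miR-144 and miR-451a come from a common primary transcript that the factor GATA1 switches on, and miR-451a matures by slicing by the protein Ago2 in place of cutting by Dicer. Among leukocyte miRNAs, miR-142 is made by nearly all blood-derived cells, microglia included. The others mark narrower states: miR-150 mature lymphocytes, miR-223 neutrophils and other myeloid cells, and miR-146a and miR-155 cells with active NF-kB signalling. The newborn hindbrain holds vessels with blood and young microglia, and counts from whole tissue add up all of them.

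The guide miRNAs of 6 of the 8 genes come from RefSeq (assembly GRCm38.p6), and are written 5′ to 3′ with the seed in capitals. The seed, bases 2 to 8, is the stretch by which a miRNA finds its targets, and the sequences show that these genes carry different seeds. The miRNAs of Mir150 and Mir486 are named only.
miR-451a: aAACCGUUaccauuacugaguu
miR-144-3p: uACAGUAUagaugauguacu
miR-142a-3p: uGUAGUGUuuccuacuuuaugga
miR-142a-5p: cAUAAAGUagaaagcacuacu
miR-223-3p: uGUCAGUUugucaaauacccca
miR-146a-5p: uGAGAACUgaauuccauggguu
miR-155-5p: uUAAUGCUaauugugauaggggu
All 7 seeds were different. The guides were 20 to 23 bases long, so counts of reads were set side by side without a correction for length. The files count reads per gene and do not separate the arms of a precursor, so the values below belong to the gene and not to the printed strand alone.

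All 8 genes were detected, at levels between 21.3 and 394 CPM (counts per 1000000 counts on the miRNA genes' own strand). Detection meant 2 CPM in both pups, a level that 407 of the 1973 genes with an entry reached, or 408 features with Mir142 added. Other miRNA genes without an entry also had reads on the opposite strand of an antisense entry, and were not added. Mir376a, for example, had 110893 such reads over both pups, against 4260 for Mir142. The ranks and medians below leave such genes out. Own-strand counts summed to 4906127 in pup 1 and 6238680 in pup 3, so that a count of 0 would have allowed up to 0.611 CPM in pup 1 or 0.481 CPM in pup 3 (3 counts). Such limits and the intervals on counts take each read as a separate molecule. Together the 8 genes took 0.183% of the counts in pup 1 and 0.147% in pup 3. The median of their mean levels was 177 CPM, beside 178 CPM for all 408 detected features. Mir150 lay above 62.3% of the detected features, while Mir144 and Mir486 lay above 29.7% and 29.2%. In whole tissue, a gene made by fewer cells and a gene making less RNA per cell cannot be told apart. Ligation and amplification favour some small RNAs over others, so an order of genes by CPM also holds differences in capture.

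The tissue's own markers were present in both libraries. Mir137, made by neurons, had 11363 CPM in pup 1 against 11340 CPM in pup 3, and Mir10a, of the Hox clusters that pattern the hindbrain, had 32189 and 24602 CPM in the same order. Of the neuronal list, 3 of the 6 genes with an entry were detected, with a sum of 11924 CPM in pup 1 against 11733 CPM in pup 3. Copies of miR-9 and miR-124 in that list can lose reads that match several places in the genome, which the tables assign to no gene. Mir126a, of endothelial cells, had 47819 CPM in pup 1 against 55787 CPM in pup 3. The 3 muscle markers summed to 239 and 202 CPM and the 3 epithelial markers to 690 and 851 CPM, pup 1 before pup 3. None of the listed markers with an entry was at 0 in both pups.

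**Figure D1:**
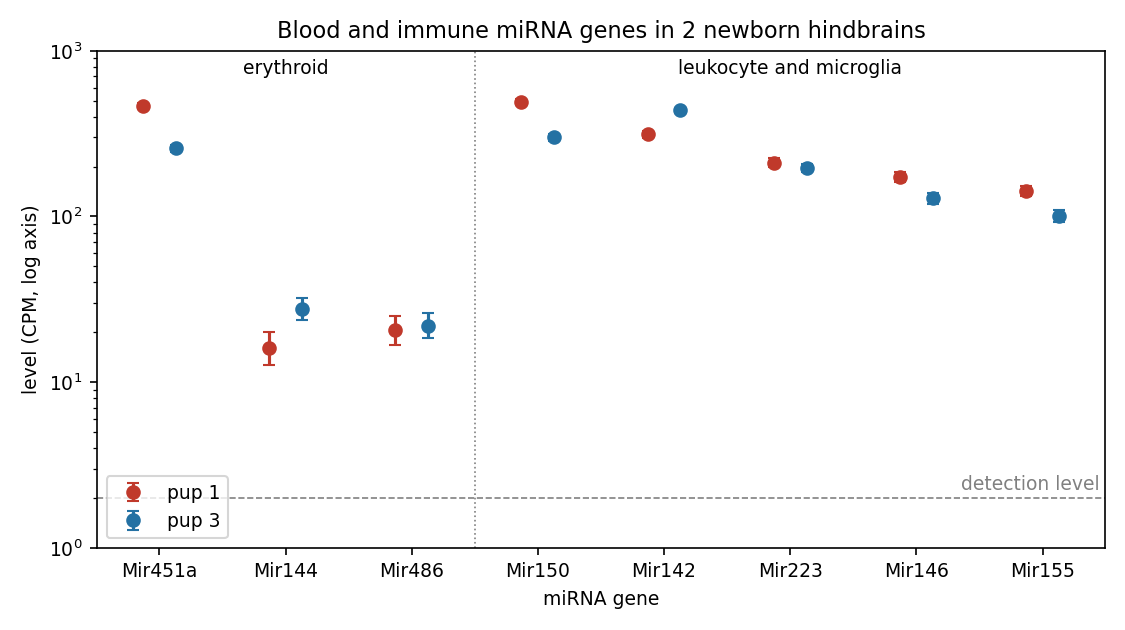
Levels of the 8 genes in CPM (vertical log axis) in pup 1 (red) and pup 3 (blue), with exact 95% binomial intervals that cover counting error only; the dashed line marks the detection level of 2 CPM. Mir451a stands far above Mir144 and Mir486 in both pups, and Mir142 and Mir144 are the genes with clearly lower values in pup 1.

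Mir451a led the erythroid genes. Its miRNA promotes the last steps of red cell maturation and protects the cells from oxidative stress. Mir451a had 461 CPM in pup 1 against 258 CPM in pup 3 (2263 and 1609 counts), a mean of 360 ± 144 CPM (SD, n = 2 pups). It ranked 163 of the 408 detected features, next to Mir615 above it and Mir667 below it. The gene lies on the plus strand of chromosome 11 (78073170 to 78073241, GRCm38), within no annotated host gene. Its precursor is shown with the mature miRNA in capitals because the miRNA crosses the middle of the hairpin.
Mir451a precursor: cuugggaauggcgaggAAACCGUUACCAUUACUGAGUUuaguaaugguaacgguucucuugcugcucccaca
The mature sequence runs from base 17 to base 38 of 72 and so passes the middle of the precursor, base 36. RefSeq names a single mature form for this precursor. The antisense gene Mir451b covers exactly the same bases on the minus strand and has no entry of its own in the tables. On the strand of Mir451b no read was counted in either pup, so the Mir451a counts came from its own strand alone.

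Mir144 lies 99 bases before Mir451a on the same strand, at 78073005 to 78073070, and was much lower. Its miRNA acts with miR-451a in red cell maturation. Mir144 had 16.1 CPM in pup 1 against 27.7 CPM in pup 3 (79 and 173 counts), a mean of 21.9 ± 8.22 CPM (SD, n = 2 pups). Its rank was 288. The precursor is shown for comparison with that of Mir451a, with the guide miR-144-3p in capitals.
Mir144 precursor: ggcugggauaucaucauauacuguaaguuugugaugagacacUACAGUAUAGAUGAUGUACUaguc
Here the guide begins at base 43 of 66, past the middle, and the table names a second mature form on the other arm. Mir451a thus had 28.6 times the counts of Mir144 in pup 1 and 9.30 times in pup 3. Among 118 pairs of detected miRNA genes that neighbour each other on the same strand within 10000 bases, the median ratio of the higher to the lower mean level was 6.16, and 41 pairs had a larger ratio than the 16.4 of Mir451a over Mir144. Some of these pairs hold genes with near-identical copies, which can lose reads that match several places. Such losses can widen a pair's ratio, and the pairs were looked up after the values of this cluster had been seen.

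Mir486, in an intron of Ank1 (chromosome 8, 23142555 to 23142682, plus strand), had a counted level as low as that of Mir144. Ank1 encodes the ankyrin of the red cell membrane, and miR-486 is made in erythroid and muscle cells. Mir486 had 20.6 CPM in pup 1 against 22.0 CPM in pup 3 (101 and 137 counts), a mean of 21.3 ± 0.971 CPM (SD, n = 2 pups). The 2 values have overlapping 95% counting intervals, 16.8 to 25.0 CPM for pup 1, with 18.4 to 26.0 CPM in pup 3. Mir3107 lies inside it on the minus strand and has no entry. Unlike at Mir451a, some reads lay on that strand, 11 in pup 1 and 3 in pup 3, or 9.82% and 2.14% of the reads on either strand of the Mir486 entry. Reads that match several places in the genome are assigned to no gene. Whether Mir486 loses reads in this way was not tested, because its sequence was not at hand, so its count can be too low.

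The erythroid group was thus mostly 1 gene. Its 3 genes summed to 498 CPM in pup 1, against 308 CPM in pup 3 (403 ± 135 CPM, SD, n = 2 pups). Mir451a made up 92.6% of the group's counts in pup 1, with an exact 95% binomial interval of 91.5 to 93.6, against 83.8% in pup 3 (82.1 to 85.5). The share of Mir144 was 3.23% in pup 1 (2.57 to 4.01) and 9.02% in pup 3 (7.77 to 10.4). The intervals of the pups do not overlap for either gene, and they cover counting error only. Reads of Mir486 that match several places, if any, are missing from the group's sum and shares.

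Mir150 had the highest mean level of the 8 genes. Its miRNA accumulates in mature B and T cells, where it represses the factor Myb. Mir150 had 488 CPM in pup 1 against 300.2 CPM in pup 3 (2396 and 1873 counts), a mean of 394 ± 133 CPM (SD, n = 2 pups) and rank 154. Mir96 and Mir1193 are its neighbours in rank. The gene is on the plus strand of chromosome 7 (45121757 to 45121821) and has no host gene. Mir5121 lies 5096 bases away on the minus strand and has no entry.

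Mir142, the miRNA of nearly all blood-derived cells, was close to Mir150 in mean level and opposite to it in the order of the pups. It had 314 CPM in pup 1 against 436 CPM in pup 3 (1540 and 2720 counts), a mean of 375 ± 86.3 CPM (SD, n = 2 pups) and rank 159. Pup 3 is thus the high pup for Mir142 and pup 1 the high pup for Mir150. Mir142 lies on the plus strand of chromosome 11 (87756864 to 87756927) inside an intron of Mir142hg, a noncoding host. Its precursor is shown with both mature miRNAs in capitals, since this is the sequence whose reads were taken from another gene's entry.
Mir142 precursor: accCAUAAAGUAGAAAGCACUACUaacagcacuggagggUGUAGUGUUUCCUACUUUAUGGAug
The reverse complement of all 64 bases is found at bases 29 to 92 of the Mir142b precursor, which is 115 bases long. The Mir142b entry held 0 reads on its own strand in both pups, and each of its reads lay on the strand of Mir142. The same arrangement was seen elsewhere in the tables. Of 12 entries with at least 10 opposite-strand reads and more of them than own-strand reads, 11 overlap an antisense miRNA gene that has no entry of its own. The Mir142b entry itself is among the 12 and among the 11.

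Mir223 was the steadiest leukocyte gene. Its miRNA is strongest in neutrophils and limits the expansion of their progenitors. Mir223 had 212 CPM in pup 1 against 196 CPM in pup 3 (1038 and 1223 counts), a mean of 204 ± 11.0 CPM (SD, n = 2 pups) and rank 194. Their 95% counting intervals overlap, 199 to 225 CPM for pup 1, with 185 to 207 CPM in pup 3. The gene is on the plus strand of the X chromosome (96242817 to 96242926) and overlaps an exon of the noncoding gene F630028O10Rik.

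Mir146 and Mir155, which respond to inflammatory signals, were the lowest of the leukocyte genes. The miRNA of Mir146, miR-146a, holds back the signalling proteins Traf6 and Irak1. Mir146 had 173 CPM in pup 1 against 128 CPM in pup 3 (848 and 801 counts), a mean of 151 ± 31.4 CPM (SD, n = 2 pups). It lies on the minus strand of chromosome 11 (43374397 to 43374461), outside any host gene. Mir155 overlaps an exon of its host Mir155hg on the plus strand of chromosome 16 (84714140 to 84714204) and makes a miRNA that represses Socs1 in activated leukocytes. Mir155 had 142 CPM in pup 1 against 100.5 CPM in pup 3 (699 and 627 counts), a mean of 121 ± 29.7 CPM (SD, n = 2 pups). Both genes were higher in pup 1, and Mir146 had 1.21 times the counts of Mir155 in pup 1 and 1.28 times in pup 3.

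The 5 leukocyte genes summed to 1329 CPM in pup 1, against 1161 CPM in pup 3 (1245 ± 119 CPM, SD, n = 2 pups). Their counts were 2.67 times those of the erythroid genes in pup 1 and 3.77 times in pup 3. Within the group, Mir150 took 36.7% of the group in pup 1, with an exact 95% binomial interval of 35.6 to 37.9, against 25.9% in pup 3 (24.9 to 26.9). Mir142 took 23.6% in pup 1 (22.6 to 24.7) and 37.5% in pup 3 (36.4 to 38.7). The leading leukocyte gene was therefore Mir150 in pup 1 and Mir142 in pup 3.

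**Figure D2:**
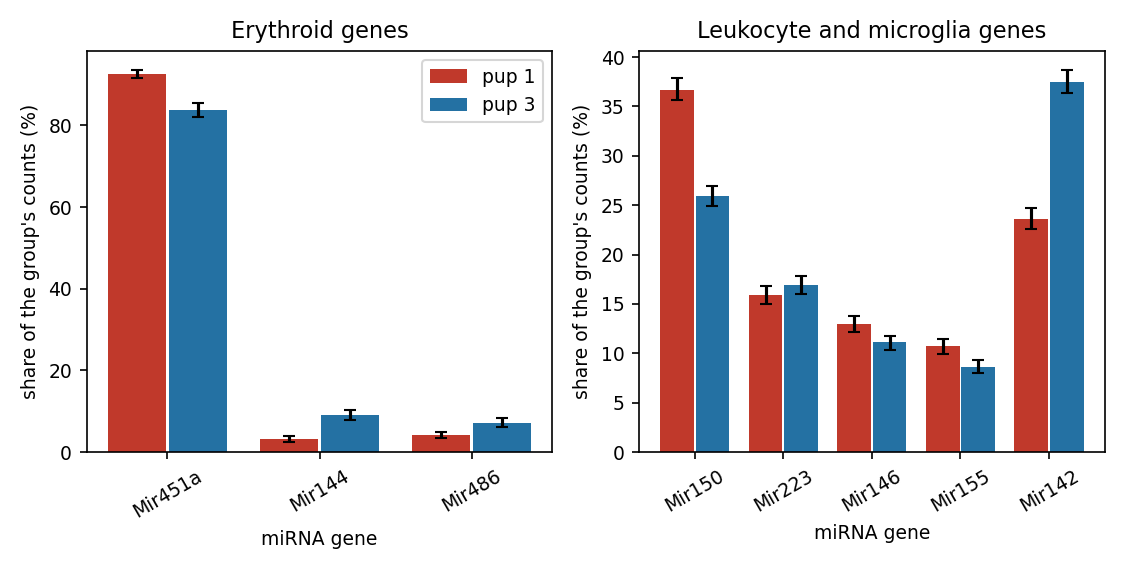
Share of each gene in the counts of its group (percent, axes from 0) in pup 1 (red) and pup 3 (blue), with exact 95% binomial intervals. Mir451a takes over 80% of the erythroid counts in both pups, while Mir150 leads the leukocyte group in pup 1 and Mir142 in pup 3.

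The order of mean levels ran Mir150, Mir142, Mir451a, Mir223, Mir146, Mir155, Mir144 and Mir486. The values of the pups overlapped between Mir150 and Mir142, between Mir142 and Mir451a, between Mir146 and Mir155, and between Mir144 and Mir486. Within each pup, however, Mir146 exceeded Mir155, and their 95% counting intervals were separate (161 to 185 and 132 to 153 CPM in pup 1, 120 to 138 and 92.8 to 109 CPM in pup 3). Of the other 3 overlapping neighbours, each changed places between the pups. The values were separate between Mir451a and Mir223, between Mir223 and Mir146, and between Mir155 and Mir144. The gap of Mir155 over Mir144 was the largest of these steps in ratio, from 121 CPM of Mir155 on average to 21.9 CPM of Mir144.

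**Figure D3:**
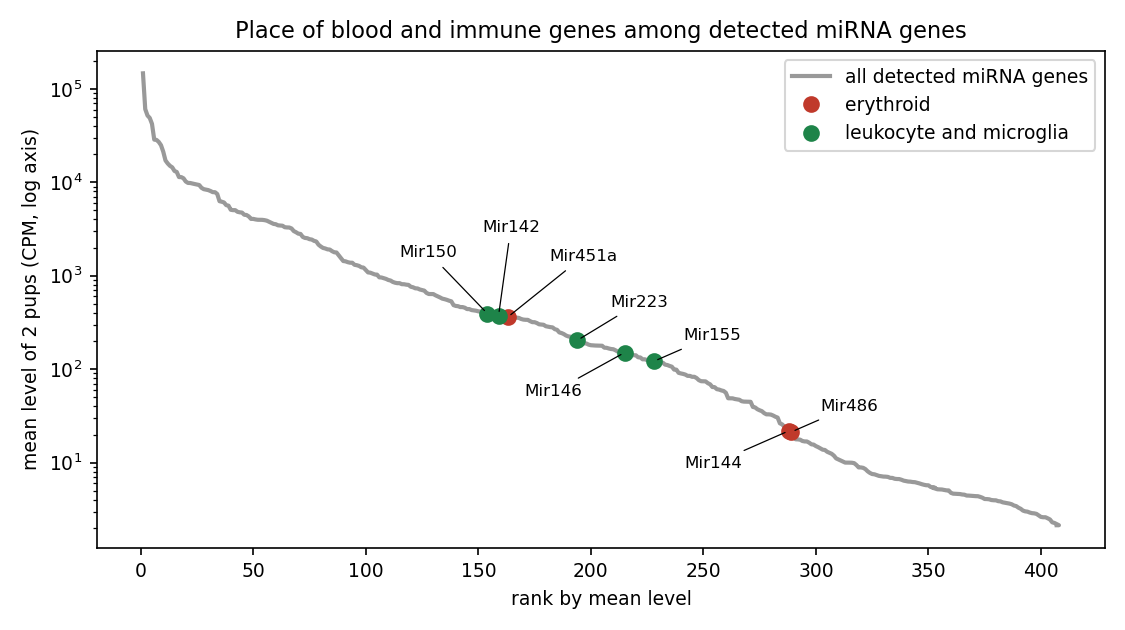
Mean level of 2 pups (CPM, vertical log axis) against rank for the 408 detected features (grey line), with the erythroid (red) and leukocyte (green) genes marked. Mir150, Mir142 and Mir451a sit together at ranks 154 to 163, and Mir144 and Mir486 sit side by side at ranks 288 and 289.

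How the 8 genes differed between the libraries was compared with all miRNA genes. An exact binomial test per gene, two-sided, compared the counts with the ratio of library sizes scaled by TMM (edgeR's trimmed mean of M values), with Benjamini-Hochberg adjustment over 509 tested features. It compares 2 libraries and covers counting error only, with no estimate of the spread between animals. Of the 8 genes, 0 differed at an adjusted p under 0.05 and at least 2-fold, where 6.68% of all tested features did, 5.7% higher and 0.982% lower in pup 1. At any fold, 6 of the 8 passed the adjusted p, where 47.7% of all did, 4 higher in pup 1 (23.8% of all) and 2 lower in pup 1 (24% of all). The median size of the log2 difference was 0.46 for the 8 genes and 0.30 for all tested features. The spread between the pups, estimated by edgeR over 413 genes, was a biological coefficient of variation of 0.233, which makes the SD of a log2 difference between the pups 0.47. That SD comes from the same libraries and is given as a scale only. On TMM scaling the 8 log2 differences lay between -0.88 for Mir144 and 0.70 for Mir451a, and Mir144 reached -0.97 with DESeq2 size factors.

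Mir451a and Mir150 had the largest differences towards pup 1. The log2 difference, pup 1 over pup 3 with a pseudocount of 1 CPM, was 0.70 for Mir451a (95% counting interval without the pseudocount 0.61 to 0.79, exact binomial test, adjusted p = 4.16e-50). For Mir150 it was 0.56 (0.48 to 0.65, exact binomial test, adjusted p = 2.72e-36). Mir155 at 0.36 and Mir146 at 0.29 also passed the adjusted p in this direction, with exact binomial adjusted p of 1.21e-05 and 0.000124. The genes higher in pup 1 thus included Mir451a of the erythroid group and the lymphocyte gene Mir150. The other erythroid genes, Mir144 and Mir486, had log2 differences in the opposite direction.

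Mir144 and Mir142 were lower in pup 1. The log2 difference, pup 1 over pup 3, was -0.88 for Mir144 (95% counting interval -1.32 to -0.53, exact binomial test, adjusted p = 4.15e-06). For Mir142 it was -0.61 (-0.70 to -0.52, exact binomial test, adjusted p = 6.94e-41). Mir486 at -0.22 and Mir223 at -0.03 did not pass, with exact binomial adjusted p of 0.360 and 0.772, and the sign of Mir223 turned on library totals (0.11). For Mir223 the interval of the log2 difference was -0.15 to 0.09, and for Mir486 it was -0.62 to 0.15. Each group thus held genes that passed in either direction. No test was made of a group as a whole.

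**Figure D4:**
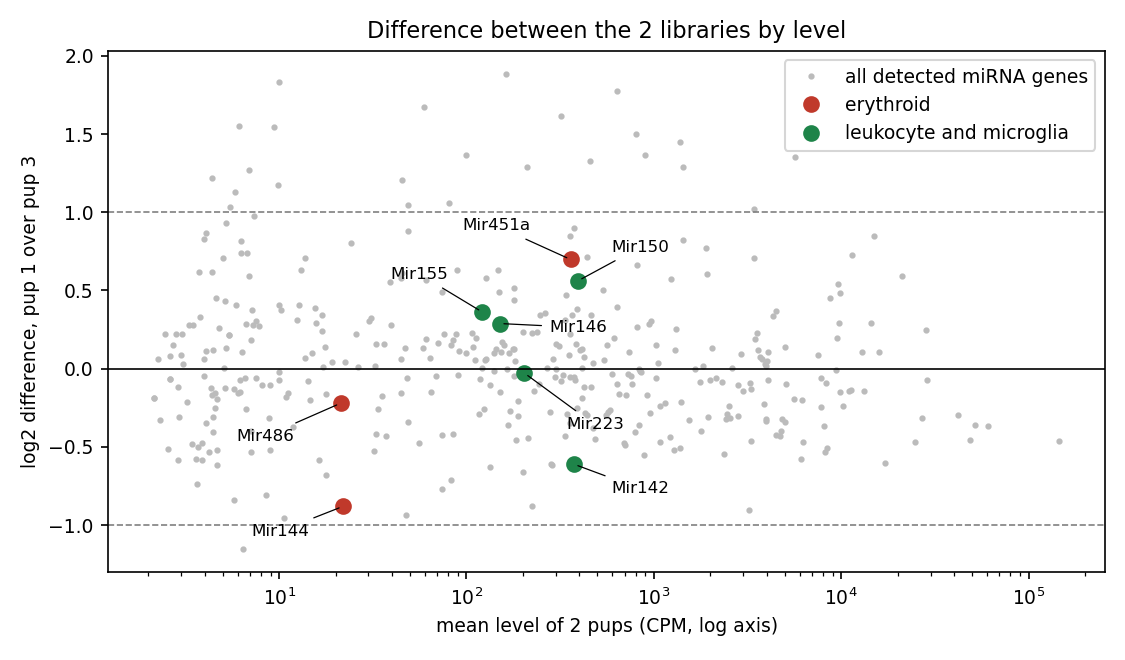
Log2 difference between the libraries, pup 1 over pup 3, against mean level (CPM, log axis) for the detected features (grey) and the erythroid (red) and leukocyte (green) genes; dashed lines mark 2-fold. All 8 genes lie within the 2-fold lines, with Mir451a at 0.70 and Mir144 at -0.88 the outermost.

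Mir451a and Mir144, which share a primary transcript, had the log2 differences farthest apart among the 8 genes. The ratio of Mir451a to Mir144 in pup 1 was 3.08 times the ratio in pup 3 (exact conditional 95% interval 2.33 to 4.10, counting error only). As a gap between the log2 differences of the genes this is 1.58. The 118 neighbouring pairs had a median gap of 0.39, and 3 of them had a larger gap than Mir144 and Mir451a. These pairs were looked up after the values of this cluster had been seen, and some hold genes with near-identical copies. The 79 counts of Mir144 in pup 1 limit the precision of this comparison.

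**Figure D5:**
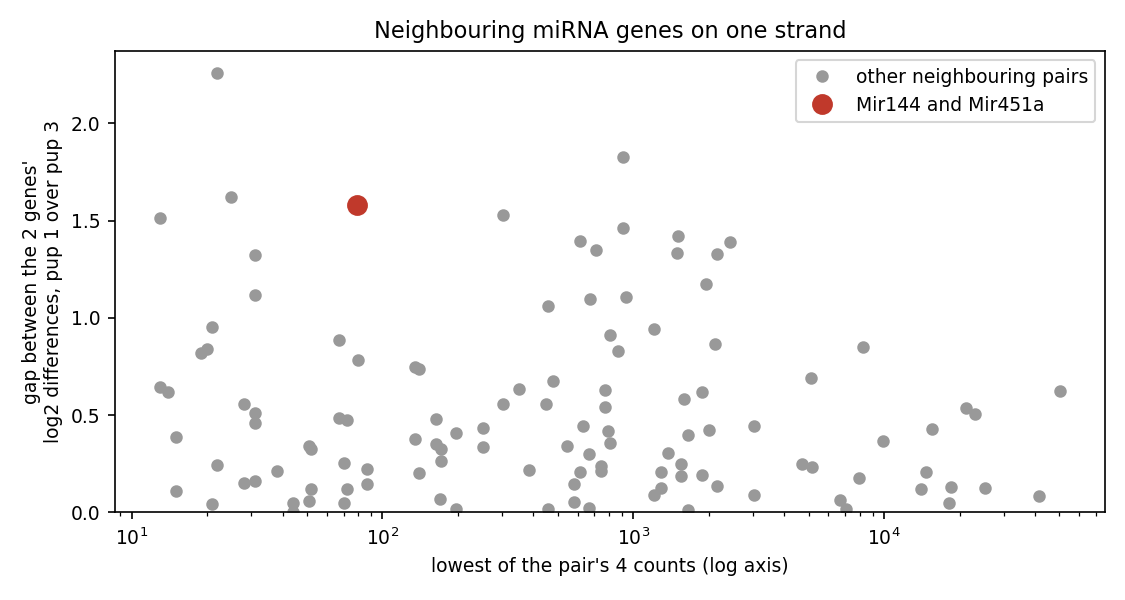
Gap between the log2 differences (pup 1 over pup 3) of neighbouring miRNA genes on the same strand, against the lowest of the 4 counts of each pair (log axis). The Mir144 and Mir451a pair (red, gap 1.58) lies above all but 3 of the 118 pairs.

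The other marker lists had the following differences between the libraries. Summed levels on TMM scaling, pup 1 over pup 3, had a ratio of 1.47 for the erythroid genes and 1.04 for the leukocyte genes, beside 0.908 for the sum of all detected features. The ratio was 0.779 for the endothelial gene Mir126a, 0.737 for the 3 epithelial markers, 0.923 for the 6 neuronal genes, 1.00 for the 4 choroid plexus and ependyma genes, 1.08 for the 3 muscle markers and 1.37 for the 3 Hox-linked genes. A sum follows its most abundant genes, and genes within a list went both ways. The log2 differences ran from -0.88 to 0.70 in the erythroid list and from -0.61 to 0.56 in the leukocyte list. In the neuronal list they ran from -0.16 to 1.54, with a median of 0.37, while Mir137 held 11351 of its mean sum of 11828 CPM. The choroid plexus and ependyma genes ran from -0.43 to 0.20. The part of the other lists in the differences of the blood and immune genes was not tested.

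Few other genes carry the same seeds. Mature miRNAs of the RefSeq table were compared over bases 2 to 8 and over bases 2 to 7 of the printed guides. Mir146b alone shared bases 2 to 8, with miR-146a-5p. The sequences are shown because they differ outside the seed.
miR-146a-5p: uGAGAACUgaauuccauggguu
miR-146b-5p: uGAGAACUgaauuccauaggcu
Counted from the 5′ end of miR-146a-5p, the differences are G18A and U21C. Mir146b was far lower, with 3.47 CPM in pup 1 and 4.97 CPM in pup 3 (17 and 31 counts). Of the own-strand counts of Mir146 and Mir146b, nearly all were thus those of Mir146, with the arms of each precursor not separated. Of 6 precursors compared, that of Mir146 was the 1 that shared a stretch of 20 bases with a miRNA precursor elsewhere, that of Mir146b, so reads matching both can be missing from its count. The precursors of Mir150 and Mir486 were not compared.

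In the same set of miRNAs, a shorter match, bases 2 to 7, tied 3 further genes to the guides. Mir101a shares it with miR-144-3p and had 761 CPM in pup 1 against 1015 CPM in pup 3, far above the 16.1 and 27.7 CPM of Mir144.
miR-144-3p: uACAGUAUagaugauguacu
miR-101a-3p: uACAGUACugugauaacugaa
The capitals again mark bases 2 to 8, which differ at the last of them. Mir344f, whose miR-344f-5p shares bases 2 to 7 of miR-223-3p, had 27.7 CPM in pup 1 against 25.0 CPM in pup 3. Mir7217, whose miR-7217-3p shares those of miR-146a-5p, has no entry.

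A list of 12 other miRNA genes with known roles in blood cells, all of them also made outside blood, spread over a wider range. All 12 were detected, with a median level of 1122 CPM and a range of 4.22 CPM for Mir146b to 7488 CPM for Mir23a. Of the 12, 6 averaged less than the 394 CPM of Mir150. They summed to 33540 CPM in pup 1, against 26213 CPM in pup 3. At any fold, 5 of the 12 were higher (23.8% of all tested features) and 4 were lower in pup 1 (24% of all) at an adjusted p under 0.05, and their median log2 difference was 0.01, beside 0.02 for all tested features. Mir342, made in lymphoid and myeloid cells and in brain, was the 1 that also passed 2-fold (5.7% of all were higher in pup 1 by this rule), with 8391 CPM in pup 1 and 2982 CPM in pup 3 and a log2 difference of 1.35. The erythropoiesis regulators Mir221 and Mir222, which repress the receptor Kit, were higher in pup 1 at 411 and 288 CPM, against 269 and 206 CPM in pup 3 (log2 differences 0.47 and 0.34, exact binomial adjusted p 1.33e-22 and 1.73e-09). Mir16-1 and Mir23a were also higher, with log2 differences of 0.77 and 0.09. The 4 lower genes were Mir181a-1, Mir24-2, Mir21a and Mir15a, with log2 differences of -0.43, -0.36, -0.10 and -0.07. Genes of this list with copies elsewhere in the genome, such as Mir16-1, Mir24-2 and Mir181a-1, can lose reads that match several places. Their counts, their differences between the pups and the list's sum and median can therefore miss part of their miRNAs.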

How the data were processed

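The authors deposited raw read counts per miRNA gene in 1 table per pup. Assembly mm10 and annotation M4 are named in the text files that accompany the tables. Which aligner and counter were run is not given in the sources used here. The 3 count columns were read from their values as either strand, the gene's strand and the opposite strand. The authors' own-strand counts were used, and for Mir142 the opposite-strand counts of Mir142b. The 4 leading entries name no gene and were left out: reads at several genomic places were 37.9% of the table in pup 1 and 39.4% in pup 3, unmapped reads 17.7% and 13.9%, and reads in no feature 2.66% and 1.59%. The share left for own-strand counts was 40.5% in pup 1 and 43.6% in pup 3. IDs were matched without version to GENCODE M21 (GRCm38, the assembly of mm10; 1894 of 1973 matched).

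Features with 10 or more counts in sum entered the exact binomial test (scipy 1.17.1); scaling and dispersion came from edgeR 4.0.16, and size factors for an alternative from DESeq2 1.42.0. The calling step was tested on simulated data with counting error only, which cannot show how calls behave under spread between animals. The chi-square per tested feature between the libraries was 436, far above counting noise, so they are not a repeated deposit. The labels name separate pups, but p-values hold counting error only. Named besides the 8 genes were miRNA genes within 10000 bases of them, those sharing a seed, the neighbours in rank of Mir451a and Mir150, a list of 12 other blood-cell genes and the cell type markers; the genes named from the list of 12 were picked out after their values were seen, as were the neighbouring pairs. The genes, lists and tests were chosen with earlier results of these data known. Alternatives covered scaling, count minimum, fold, pseudocount, strand column, denominator, detection level and leaving out each pup.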

Additional observations from a re-analysis of the deposited data

Results flagged for a closer look

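Opposite-strand reads of the Mir486 entry numbered 11 in pup 1, above the 3 counts that a count of 0 allows, and 3 in pup 3. They lie on the strand of Mir3107, which overlaps Mir486 and has no entry of its own, and no comparison above uses them.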

How the results depend on the processing

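Per 1000000 reads of all kinds in the tables, the erythroid sum was 168 CPM and the leukocyte sum 522 CPM, against 403 and 1245 CPM per own-strand miRNA count. This follows from the larger denominator, and it moved each gene's level likewise. Leaving out Mir142, or reading it from the own strand of Mir142b, gave a leukocyte sum of 870 CPM. Leaving out a pup in turn gave 308 to 498 CPM for the erythroid sum and 1161 to 1329 CPM for the leukocyte sum. The number of features that differed between the libraries was 34, but 18 with a minimum of 100 counts and 243 at any fold, and 6 of the 8 genes passed at any fold, against 0 at 2-fold. The split of the 34 was 29 higher and 5 lower in pup 1, 38 and 4 on library totals and 25 and 8 with DESeq2 size factors. Library totals moved the median log2 difference of detected features to 0.14. Over the scalings and pseudocounts run, Mir223 changed sign (-0.12 to 0.11), and the other 7 genes kept theirs. All 8 genes were detected at 1 and at 10 CPM. A difference between the libraries cannot be had without either pup. With 2 animals in 1 group, no paired analysis was possible because there is no second group.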
